A study of Stylophora pistillata with 6 samples.

Results

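The transcripts described here are 150 predicted mRNAs of the reef coral *Stylophora pistillata* that had reads in every library and stood highest in darkness relative to the light cycle. They were chosen from the same measurements that are described. Of the 36031 transcript models in the deposited table, 33152 are predicted mRNAs (accession prefix XM), and 18975 of these had at least 10 estimated reads in all 6 libraries. With the 200 mRNA models of highest mean level left out, 18775 remained, called the eligible models below. Levels are given as CPM, the estimated reads of a transcript scaled to a library total of 1000000. For each eligible model the lowest CPM of the 3 darkness libraries was divided by the highest CPM of the 3 controls, and the 150 models with the highest ratio were kept. Every comparison of the 150 between darkness and control is therefore a description and carries no test.

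RNA came from subapical branch tissue of nubbins, which are small fragments cut from a coral. The 3 control nubbins lived under 12 h of light and 12 h of dark per day with an irradiance of 230 μmol photons per square metre per second, and the 3 darkness nubbins were kept for 6 months without light and looked bleached. Both groups were held at 25 °C in Mediterranean seawater and received the same rotifers and brine shrimp larvae. The labels give neither the colony of origin of each nubbin nor its age, so p-values measure the spread between these samples, which may come from 1 colony or several. Any difference in genotype between the groups cannot be told apart from the treatment.

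*S. pistillata* houses dinoflagellate algae inside cells of its gastrodermis, the tissue layer that lines the gut cavity. In light the algae pass sugars, lipids and other products of photosynthesis to the host, and the host also captures prey. A coral without light gets no photosynthate and usually loses its algae or their pigment, the pale state called bleaching. What is measured here is RNA from crushed branches, a mixture of all tissues of the nubbin. In such bulk samples a change in the number of cells of one type and a change in RNA per cell cannot be told apart.

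The gene table used here pairs accessions with locus symbols and holds no product names. Of the 150 models, 92 (61.3%) matched a symbol, close to the 62.3% of all eligible models, and these 92 lie in 91 loci. All matched symbols are LOC numbers, so no function is given to any of them, and lists of gene functions, cell type markers and a check of the tissue label were not analysed here. Unless said otherwise a symbol stands for the 1 transcript of that locus among the 150.

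Library totals ran from 17819870 to 20218247 estimated reads in controls and from 29123228 to 33307386 in darkness, so that darkness libraries were deeper. In the controls the 150 models had a median of 77.0 to 113.5 reads and in darkness 1125 to 1260. The lowest count of any of them was 10 in a control and 60 in a darkness library. A count of 10 has an exact Poisson 95% interval of 4.80 to 18.4 reads, which covers counting error only, and 41 of the 150 had under 30 reads in at least 1 control. For these the depth of the controls limits how well the fold is known.

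Together the 150 models went from a small share of the coral's reads to one several times larger. Their summed share was 0.228%, 0.201% and 0.209% in controls 1, 2 and 3, against 1.59%, 1.37% and 1.36% in darkness 1, 2 and 3. The ratio of mean CPM in darkness to mean CPM in controls, called the fold below, ran from 3.41 to 116 with a median of 5.98, beside a median of 1.07 over the eligible models. At least 4-fold was reached by 132 of the 150, at least 8-fold by 43, at least 16-fold by 12 and at least 32-fold by 5. Their mean level in controls had a median of 5.27 CPM and ran from 0.623 to 105 CPM, where eligible models had a median of 15.0 CPM. In darkness their median was 38.4 CPM against 16.04 CPM for the eligible models. Fitted with all transcripts in edgeR's quasi-likelihood test, 150 of 150 passed an adjusted p of 0.05 in the higher direction. Over all tested transcripts 8.08% passed in that direction, but the choice used this contrast and nothing is read from the difference. Likewise every darkness library lay above every control for all 150 by construction, which held for 29% of the eligible models.

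**Figure D1:**
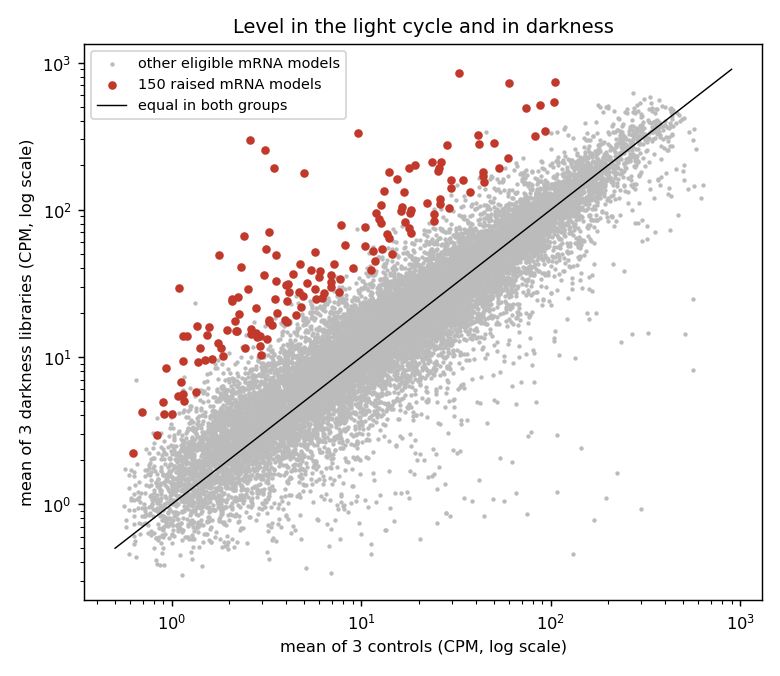
Mean CPM of each eligible mRNA model in the 3 controls (horizontal axis) and in the 3 darkness libraries (vertical axis), both on log scales, with the 150 chosen models in red and the line of equal level in black. The chosen models lie above the line at every level, from 0.623 to 105 CPM in controls, and a handful near 3 CPM in controls stand far above the rest.

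The steepest rises were in models with low levels in the light cycle and far higher ones in darkness. LOC111336576 had 3.27, 2.24 and 2.18 CPM in controls 1 to 3 and 409, 263 and 219 CPM in darkness 1 to 3, a fold of 116. Its controls lay close together at a low level, while darkness 1 stood above the other darkness libraries. LOC111343638 had 3.83, 2.81 and 2.67 CPM in controls and 280, 254 and 225 CPM in darkness, an 81.7-fold difference with a narrower spread in darkness. Its estimates were whole numbers in all 6 libraries, as for 90 of the 150 (60%) and 58.6% of the eligible models; an estimate that is not whole can arise where reads are divided between similar models. LOC111335804 had 7.20, 2.41 and 0.742 CPM in controls and 282, 160 and 135 CPM in darkness, 55.7-fold higher on the means. Its controls differed among themselves by more, on the log2 scale, than those of any other of the 150 but LOC111339753, and the fitted fold went from 52.3 to 114.6 when control 1, the highest control, was left out. LOC111341085 had 5.63, 6.08 and 3.26 CPM in controls and 231, 150 and 147 CPM in darkness. LOC111324403 had 13.1, 4.55 and 10.98 CPM in controls and 388, 293 and 313 CPM in darkness. Both were about equally changed, by 35.3-fold and 34.7-fold.

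Of the 10 models with the highest ratios, the other 5 reached between 13.9-fold and 27.7-fold. LOC111336571 took the most reads of the 150 in darkness, with 36.6, 25.3 and 36.0 CPM in controls and 1081, 745 and 710 CPM in darkness. XM_022948068.1 was among the scarcest in controls, with 0.919, 1.46 and 0.890 CPM, and had 29.8, 25.9 and 32.2 CPM in darkness. XM_022926936.1 had 2.55, 1.12 and 1.63 CPM in controls and 64.0, 40.5 and 42.4 CPM in darkness. These low control levels rest on few reads, and the groups were nevertheless far apart. LOC111335277 had 3.98, 1.40 and 1.78 CPM in controls and 85.0, 56.4 and 56.3 CPM in darkness. LOC111320455 had 4.54, 3.42 and 2.62 CPM in controls and 51.8, 46.1 and 49.5 CPM in darkness. Of these 5, LOC111320455 spread least in darkness, and all but XM_022948068.1 were highest in darkness 1.

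The models that took the most reads in darkness already had substantial levels in the light. After LOC111336571 came LOC111338256, with 104, 122 and 88.5 CPM in controls and 813, 696 and 698 CPM in darkness, 7.01-fold higher. XM_022950406.1 had 61.5, 39.8 and 78.6 CPM in controls and 616, 792 and 781 CPM in darkness, 12.2-fold higher. XM_022942699.1 had 128, 76.9 and 107 CPM in controls and 655, 449 and 509 CPM in darkness, 5.18-fold higher. LOC111330761 had nearly the same value in every control, 87.2, 87.9 and 87.7 CPM, and 569, 481 and 482 CPM in darkness, 5.83-fold higher. Among these 5 models XM_022950406.1 alone was lowest in darkness 1. CPM is not corrected for transcript length, so the order of these models is one of reads and not of molecules.

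**Figure D2:**
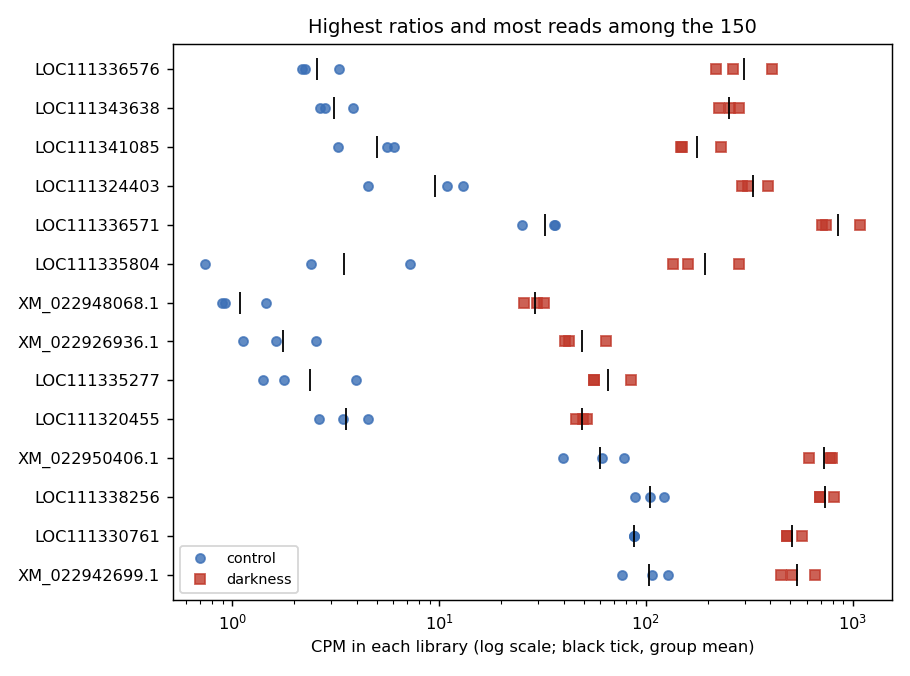
CPM in each library (log scale) of the 10 models with the highest ratio and the 5 with the most reads in darkness, 14 in all because LOC111336571 is in both; blue circles are the 3 controls, red squares the 3 darkness libraries and black ticks the group means. The groups are apart in every model, and the control circles of LOC111335804 spread from 0.742 to 7.20 CPM.

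At the edge of the list the folds were modest, from 3.46 to 3.63 for the last 3 models inside. Their ratios were 2.99 (LOC111329248), 2.98 (XM_022927026.1) and 2.97 (XM_022948835.1). LOC111329248 had 31.8, 30.1 and 24.6 CPM in controls and 110, 100.2 and 94.9 CPM in darkness. The first 3 outside, LOC111323648, LOC111345061 and XM_022935986.1, had ratios of 2.94, 2.94 and 2.93. The limit of 150 thus falls within a continuous series of values and marks no gap.

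The 150 models did not all follow the same order among the darkness libraries. Darkness 1 was the highest of the 3 for 86 of the 150 (57.3%), where it was highest for 29.1% of the eligible models. Among the 10 highest ratios it was highest for 9. The median deviation of the 150 from their own darkness mean was 0.09 on the log2 scale in darkness 1, −0.06 in darkness 2 and −0.07 in darkness 3, against −0.02, 0.02 and 0.01 for the eligible models. In controls the same deviations were 0.12, −0.08 and 0.04 for the 150. Control 1 was the highest control for 69 of the 150 (46%) and for 28.0% of the eligible models. The part of the choice in these orders was not tested. Without darkness 1 the median fold of the 150 was 5.78, against 5.98 with it.

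A smaller number went the opposite way in darkness 1. In 49 of the 150 (32.7%) darkness 1 was at least 1.2 times both other darkness libraries, and in 16 (10.7%) both others were at least 1.2 times darkness 1, beside 8.12% and 13.8% of the eligible models. LOC111333779 showed the first order, with 83.5 CPM in darkness 1 against 37.8 and 40.1 CPM in darkness 2 and 3, and 2.66, 2.81 and 3.96 CPM in controls. XM_022939386.1 and LOC111333236 shared it, with 18.1 against 7.99 and 8.57 CPM and with 35.3 against 18.3 and 17.9 CPM. LOC111328002 showed the second order, with 9.71 CPM in darkness 1 against 19.5 and 19.3 CPM in darkness 2 and 3, and 1.12, 1.40 and 1.53 CPM in controls. LOC111322838 followed neither, with 16.7 and 19.2 CPM in darkness 1 and 2 and 47.4 CPM in darkness 3. Its fitted fold went from 6.20 to 4.02 when darkness 3 was left out.

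**Figure D3:**
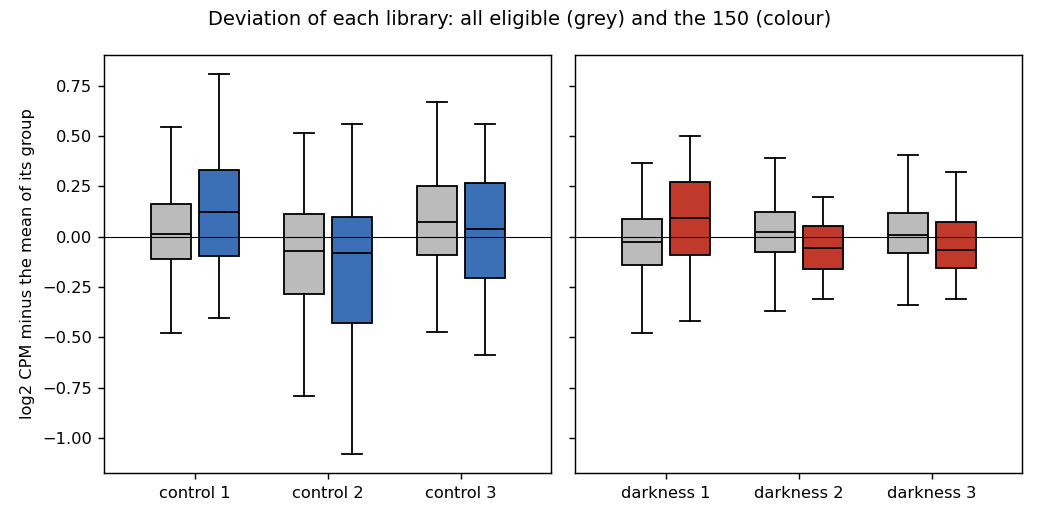
Deviation of log2 CPM from the mean of its own group, for each library; grey boxes are the 18775 eligible models and coloured boxes the 150, with the box from the lower to the upper quartile, whiskers from the 5th to the 95th percentile and the median as a line. The 150 sit above the eligible models in darkness 1 and in control 1 and spread widely downward in control 2.

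Controls differed more than darkness libraries for most of the 150, as they did for most eligible models. The SD of log2 CPM had a median of 0.37 in controls and 0.19 in darkness, beside 0.26 and 0.16 for the eligible models. It was larger in controls for 114 of the 150 (76%) and for 69.8% of the eligible models. The controls were also the shallower libraries, and the part of counting error in these spreads was not tested. LOC111339753 had the widest controls, with 0.817, 7.46 and 1.43 CPM, and 98.8, 56.2 and 56.9 CPM in darkness. Without control 2 its fitted fold went from 20.1 to 60.3. LOC111332922 had 49.9, 9.33 and 18.1 CPM in controls and 163, 216 and 194 CPM in darkness, and its fitted fold went from 7.004 to 13.2 without control 1. LOC111336009 had 3.56, 18.6 and 19.6 CPM in controls and 212, 170 and 163 CPM in darkness. In control 1 it held 14.7% of the reads of its locus and in the other controls 100%, since the other transcript, XM_022942026.1, had 20.6 CPM in control 1 and 0 in controls 2 and 3. Summed over both transcripts the locus had 24.2, 18.6 and 19.6 CPM in controls. XM_022946772.1 had 7.81, 1.91 and 8.11 CPM in controls and 34.2, 32.7 and 37.1 CPM in darkness. The library that stood apart was control 1 in some of these models and control 2 in others. Over all 150, the fitted fold of 139 moved by less than 1.5 times whichever library was left out.

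Because all 6 libraries took part in the choice, the list was chosen again on 5 libraries at a time and the library left out was then read. Of 150 models chosen without darkness 2, all 150 lay above every control in darkness 2, where 41.8% of the models eligible in that choice did. Chosen without darkness 1 and without darkness 3, 149 and 149 of 150 lay above every control in the library left out, beside 37.9% and 41% of the eligible models. Their median level in the library left out was 6.13 times the control mean for darkness 1, 5.51 times for darkness 2 and 5.86 times for darkness 3. Chosen without control 1, 2 or 3, 148, 145 and 149 of 150 lay below every darkness library in the control left out, beside 45.9%, 53.1% and 41.2%. The libraries of the other group, against which the left-out library was read, did take part in the choice, so this is a description and not independent support. Each such choice shared between 106 and 136 models with the 150, with 106 to 114 shared without a control and 122 to 136 without a darkness library. Leaving out a library also dropped its demand for reads. Without a control 19059 to 19966 models were eligible, and without a darkness library 18925 to 18941. How much of the difference in shared models comes from this was not tested. The models chosen without control 2 included 13 with 0 reads in control 2, since the demand for reads in every library no longer covered it.

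**Figure D4:**
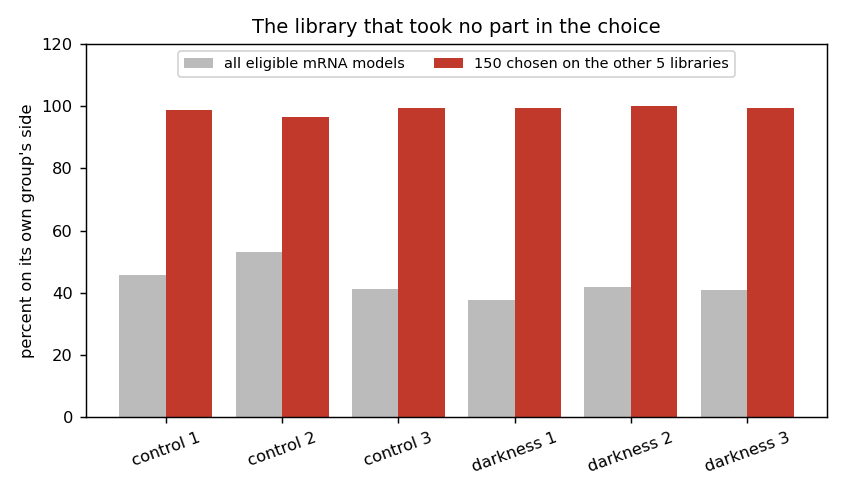
Percent of models that lay on the side of the library's own group in a library that took no part in the choice, read against the other group's libraries, which did, for each of the 6 libraries; grey bars are all models eligible in that choice and red bars the 150 chosen on the other 5 libraries. Red bars reach 96.7% to 100% and grey bars 37.9% to 53.1%.

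Some loci of the 150 models lay next to each other. In the gene order of the RefSeq assembly jaStyPist1.2, which may differ from the assembly behind the counts, 10 pairs of loci were neighbours with no other counted gene between them. These pairs hold 19 of the 91 loci (20.9%), while 179 of the 14682 matched genes (1.22%) lie directly beside a locus of the 150. The matched genes are not limited to those of eligible models, and the difference between these shares was not tested. In 7 of the pairs the table lists no gene of any kind between the neighbours. LOC111324403 stood beside LOC111324311, which had 17.7, 10.6 and 18.2 CPM in controls and 190, 146 and 148 CPM in darkness. LOC111322573 and LOC111322539 were alike in level and order, with 30.8, 18.97 and 29.0 CPM and 34.6, 20.1 and 30.4 CPM in controls, and 266, 184 and 184 CPM and 340, 236 and 249 CPM in darkness. Both had whole estimates in every library. In some other pairs estimates were not whole, as at LOC111336009 and LOC111346699, and the part of shared reads was not tested.

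Neighbouring loci were highest in the same darkness library in 6 of the 10 pairs. Over all 150, darkness 1, 2 and 3 were highest for 57.3%, 21.3% and 21.3%, so that some pairs share a library by these shares alone. Whether neighbours shared a library more often than that was not tested. LOC111328002 was highest in darkness 2 and LOC111328003 in darkness 3, and both were lowest in darkness 1. LOC111328003 had 2.35, 1.35 and 2.18 CPM in controls and 10.8, 15.6 and 19.1 CPM in darkness. LOC111333779 was highest in darkness 1 and so was its neighbour LOC111333782, with 4.90, 4.15 and 5.39 CPM in controls and 26.2, 20.2 and 18.9 CPM in darkness. LOC111336009 and LOC111336033 did likewise, the latter with 2.09, 2.24 and 2.42 CPM in controls and 24.1, 17.83 and 17.0 CPM in darkness. LOC111340685 and LOC111340688 were both highest in darkness 2, with 10.7, 12.5 and 11.1 CPM and with 26.4, 33.7 and 29.4 CPM in darkness. Their controls had 1.63, 1.46 and 1.14 CPM and 8.42, 7.18 and 4.995 CPM. LOC111332031 and LOC111346699 were both highest in darkness 1, with 107, 82.4 and 92.1 CPM and with 18.9, 15.9 and 14.2 CPM. LOC111329800 and its neighbour LOC111329763 differed, with 292, 268 and 274 CPM and with 30.4, 46.3 and 31.9 CPM in darkness. LOC111336148 was highest in darkness 1, and its neighbours LOC111336153 and LOC111336151 in darkness 2 and darkness 3.

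Genes next to these loci that were not themselves chosen give a measure that the choice did not use. Summed over the transcripts of each gene, 160 such neighbours were tested, of which 30 were higher in darkness (18.8%) and 24 lower (15%; edgeR quasi-likelihood test, adjusted p under 0.05). Over all 13183 tested matched genes 11.7% were higher and 18% lower. The median log2 fold change of the neighbours was 0.10, against −0.03 over all matched genes. With neighbours of whole estimates only, 17 of 105 were higher (16.2%), beside 11.5% of all matched genes of that kind. Without darkness 1, 2 or 3 the neighbours that were higher numbered 16, 16 and 14 (10%, 10% and 8.75%), beside 6.21%, 5.96% and 5.82% of all matched genes. These are counts beside a background, and whether the neighbours differ from other genes was not tested.

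The neighbours included genes with differences as steep as those of the 150, in both directions. Some had 0 reads in 1 whole group, and since the colonies are not known, treatment and genotype cannot be told apart for them. LOC111343650, beside LOC111343653, had 243, 314 and 331 reads in darkness and 0 in every control. Against a floor of 3 reads over the 3 controls this is at least 181-fold higher (adjusted p = 0.000717, edgeR). LOC111341804 rose from 0.204, 0 and 0.445 CPM to 3.86, 4.68 and 3.33 CPM (log2 fold change 4.08, SE 0.93, adjusted p = 0.022, edgeR). Each SE given here and below is approximate. It is the size of the log2 fold change divided by the square root of the F statistic of the test. LOC111342247 rose from 0.766, 0 and 0.742 CPM to 11.5, 5.04 and 6.70 CPM (log2 fold change 3.86, SE 1.06, adjusted p = 0.0465, edgeR). The call of LOC111341804 was lost without control 1 or any 1 darkness library (highest adjusted p = 0.0859, edgeR) and that of LOC111342247 without any library other than control 2 (highest adjusted p = 0.138, edgeR). LOC111335807 fell beside the steeply raised LOC111335804, from 95.2, 186 and 180 CPM in controls to 0.0628, 0.300 and 0.275 CPM in darkness (log2 fold change −9.57, SE 0.53, adjusted p = 0.000402, edgeR). LOC111342832, the neighbour of LOC111339753, had 62, 43 and 60 reads in controls. It had 0 in all 3 darkness libraries and was thus at least 89.97-fold lower (adjusted p = 0.00215, edgeR). LOC111321050, the neighbour of LOC111321016, likewise had 0 reads in darkness after 3243, 1979 and 5342 in controls, a level at least 5760-fold lower (adjusted p = 0.00306, edgeR). These 3 falls and the rise of LOC111343650 were called whichever library was left out. Except at LOC111342247, some estimates of these genes were not whole, and the part of shared reads in their values was not tested.

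Models that the gene table leaves unmatched can be set in order by their accession numbers, a looser guide to position. Of 12431 pairs of matched models of different loci whose numbers differ by at most 5, 39.2% lay within 5 genes of each other in the gene order. By accession, 38 of the 150 (25.3%) fell in 16 runs in which successive members differ by at most 10, with 12 runs of 2, and 4 longer ones of 3 or 4. This grouping was chosen after the values were seen. How many of as many other eligible models would fall in such runs was not tested, so nothing is read from the 25.3%. A run can also hold 2 transcripts of the same locus, as at LOC111344161. Among mRNA models that were not chosen, 94 of 1070 within 5 numbers of a member were higher in darkness (8.79%), beside 8.34% of all tested mRNA models. Another 11.5% of the 1070 were lower, beside 10.7% of all. The count of higher ones was 44, 34 and 35 without darkness 1, 2 and 3, and the count of lower ones 64 and 65 without darkness 2 and 3. Fewer calls were made in these fits in general. Of all matched genes 6.21%, 5.96% and 5.82% were higher without darkness 1, 2 and 3, against 11.7% with all libraries. The shares over all mRNA models in these fits are not given. Within 2 numbers 55 of 455 were higher (12.1%) and 40 lower (8.79%). These can include other transcripts of a chosen model's own locus, which may share its reads. The share for other loci alone at this distance is not given. Of the 440 within 5 numbers that lie in another locus by the gene table, 39 were higher (8.86%) and 60 lower (13.6%).

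Of the 12 tested models that lie inside the 4 long runs without being chosen, 2 were higher, 1 was lower and the other 9 did not pass the threshold. The first run is XM_022942183.1 (LOC111336148), XM_022942185.1, XM_022942186.1 (LOC111336151) and XM_022942187.1 (LOC111336153). XM_022942183.1 had 11.5, 16.3 and 10.4 CPM in controls and 84.9, 78.1 and 79.6 CPM in darkness. XM_022942185.1 had 3.42, 3.65 and 4.995 CPM in controls and 22.4, 26.7 and 23.03 CPM in darkness. These had folds of 6.34 and 5.98. XM_022942186.1 and XM_022942187.1 differed less, by 4.39-fold and 3.78-fold. The former had 6.79, 8.64 and 7.67 CPM in controls and 31.7, 34.1 and 35.6 CPM in darkness, and the latter 17.77, 18.7 and 18.5 CPM and 71.5, 72.4 and 64.4 CPM. XM_022942184.1 (LOC111336149), the only other tested model inside this run, rose from 0.868, 2.41 and 1.34 CPM to 5.34, 7.99 and 4.98 CPM (log2 fold change 1.87, SE 0.49, adjusted p = 0.0491, edgeR). This call was lost without any library but control 2 (highest adjusted p = 0.163, edgeR). In the gene order LOC111336153, LOC111336148 and LOC111336151 follow each other directly. XM_022942181.1 (LOC111336145), 2 numbers before the run, outside it, and singled out after its values were seen, fell from 150, 245 and 194 CPM to 1.04, 1.44 and 0.790 CPM (log2 fold change −7.58, SE 0.36, adjusted p = 0.000783, edgeR). XM_022942189.1 (LOC111336154), 2 numbers after the run, fell from 91.9, 103 and 104 CPM to 44.0, 38.6 and 41.1 CPM (log2 fold change −1.37, SE 0.10, adjusted p = 0.00156, edgeR). Both falls were called whichever library was left out.

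The second run is XM_022943477.1, XM_022943478.1, XM_022943480.1 and XM_022943482.1 (LOC111337217). XM_022943478.1 was the most abundant of them in reads, with 70.0, 86.7 and 66.1 CPM in controls and 470, 523 and 491 CPM in darkness. XM_022943480.1 was the most even, with 4.75, 4.66 and 4.75 CPM in controls and 38.8, 41.0 and 47.5 CPM in darkness. XM_022943481.1 (LOC111337215), between members of the run and also singled out after its values were seen, had 44.1, 43.8 and 42.2 CPM in controls and 32.3, 31.9 and 36.4 CPM in darkness (log2 fold change −0.47, SE 0.10, adjusted p = 0.0265, edgeR). Its call was kept without control 3 and lost without any other library (highest adjusted p = 0.0958, edgeR). The other tested model inside it, XM_022943479.1, had 9.55, 8.98 and 10.9 CPM in controls and 18.4, 12.9 and 16.1 CPM in darkness and did not pass the threshold (adjusted p = 0.0698, edgeR).

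The third run holds LOC111336571, XM_022942699.1 and LOC111336576, the model with the highest ratio of all. In the gene order, 2 other counted genes lie between LOC111336571 and LOC111336576, and 0 of the 7 tested models that fall between these 3 by accession passed the threshold in edgeR (adjusted p from 0.0947 to 0.998). Of these 7, 2 had an unadjusted p under 0.05 in edgeR, and DESeq2 called 3 and limma-voom 1. All 3 members were highest in darkness 1. The fourth run holds XM_022948062.1 (LOC111341108), XM_022948063.1 and XM_022948068.1. XM_022948062.1 had 4.64, 6.34 and 5.21 CPM in controls and 33.1, 30.9 and 52.2 CPM in darkness. XM_022948063.1 had 60.8, 34.2 and 55.2 CPM in controls and 325, 266 and 256 CPM in darkness. XM_022948064.1, inside this run, rose from 2.20, 0.224 and 0.989 CPM to 8.51, 8.86 and 11.2 CPM (log2 fold change 2.98, SE 0.76, adjusted p = 0.0477, edgeR). Its call was kept without control 1 or 2 and lost without any other library (highest adjusted p = 0.137, edgeR). XM_022948061.1 (LOC111341107), the number just before this run, rose from 230, 125 and 176 CPM to 661, 427 and 448 CPM (log2 fold change 1.45, SE 0.28, adjusted p = 0.022, edgeR). Its call was kept without control 1 and lost without any other library (highest adjusted p = 0.0649, edgeR).

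**Figure D5:**
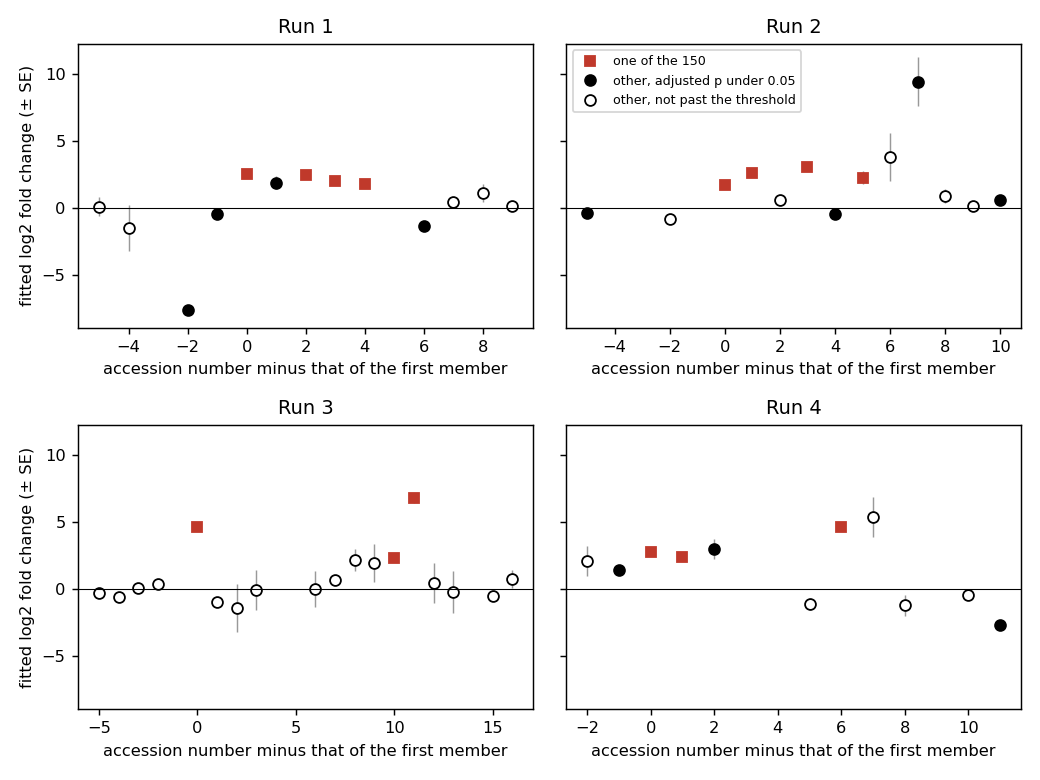
Fitted log2 fold change (darkness against control, edgeR) of the models in the 4 long runs and of those within 5 accession numbers of them. Bars are the approximate SE. The horizontal axis is the accession number counted from the first member of the run. Red squares are among the 150, filled circles are other models past the threshold and open circles other models not past it. The chosen models sit beside models near 0, higher and lower, and the point at 9.42 in run 2 belongs to a model with 0 reads in every control, whose fitted value depends on a small added count.

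Other transcripts of the same loci were measured for some of the 150. The files hold 26 of them, and 24 in 14 loci were tested. Of these, 7 were higher in darkness (29.2%, beside 8.08% of all tested transcripts) and 0 lower (beside 10.5%). For the lower direction DESeq2 and limma-voom also called 0, and 0 had an unadjusted p under 0.05 in edgeR. All of the 24 had an estimate that was not whole in at least 1 library, and how much of their change comes from reads of the chosen transcript was not tested. The count of higher ones was 4 without darkness 2 and 3 without darkness 3. In these fits fewer matched genes were called higher too, 5.96% and 5.82% against 11.7% with all libraries. These are shares of genes, with reads summed over their transcripts. The shares over all transcripts in these fits are not given. XM_022929757.1 of LOC111325841 rose from 88.2, 105 and 88.1 CPM to 360, 340 and 304 CPM (log2 fold change 1.74, SE 0.14, adjusted p = 0.00169, edgeR). XM_022946470.1 of LOC111339753 had 313, 120 and 156 reads in darkness and 0 in every control, which makes it at least 120-fold higher (adjusted p = 0.0092, edgeR), and it lost its call without darkness 3 (adjusted p = 0.0511, edgeR). XM_022943484.1 of LOC111337217 also had 0 reads in controls, and its 16.4, 107 and 195 reads in darkness place it at least 64.9-fold higher (adjusted p = 0.0463, edgeR). Its call was kept without darkness 1 and lost without any other library (highest adjusted p = 0.149, edgeR).

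Where a locus holds several transcripts, the chosen one could move with the whole locus or apart from it. For 16 of the 150, which include both chosen transcripts of LOC111344161, the share of the locus' reads could be computed. In 7 of them the share was higher in every darkness library than in every control. A choice by high darkness and low control levels favours such shares, and the same count over transcripts that were not chosen is not given. The shares rest on estimates in which reads may be divided between transcripts. The share of XM_022931067.1 in the reads of LOC111326973 was 5.36%, 1.32% and 4.001% in controls against 24.99%, 27.6% and 23.9% in darkness. It was 9.24-fold higher, while the locus as a whole was 1.29-fold higher, and the other 2 transcripts, XM_022931066.1 and XM_022931068.1, had log2 fold changes of 0.03 (SE 0.31) and −0.19 (SE 0.19) and did not pass the threshold (adjusted p = 0.959 and 0.551, edgeR). XM_022936733.1 held 7.11%, 6.23% and 4.76% of LOC111331589 in controls against 19.3%, 19.2% and 17.3% in darkness, and was 6.85-fold higher against 2.24-fold for its locus. XM_022943482.1 held 13.6%, 6.24% and 10.6% of LOC111337217 in controls against 25.7%, 20.03% and 26.1% in darkness, and was 5.08-fold higher against 2.27-fold for its locus. In these loci the chosen transcript was a minor one. XM_022948039.1 of LOC111341085 was the major one in both groups, with 67.2%, 82.7% and 68.7% in controls and 96.4%, 96.7% and 96.6% in darkness. In other loci the share hardly differed: XM_022929661.1 held 84.1%, 91.9% and 87.8% of LOC111325772 in controls against 89.1%, 88.2% and 85.6% in darkness, and was 3.51-fold higher against 3.52-fold for its locus.

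LOC111344161 was the only locus with 2 transcripts among the 150. XM_022951372.1 had 39.2, 51.7 and 32.3 CPM in controls and 381, 312 and 265 CPM in darkness. XM_022951373.1 had 12.2, 20.4 and 6.97 CPM in controls and 159, 101 and 143 CPM in darkness. Both were highest in control 2 among the controls and in darkness 1 among the darkness libraries, and their estimates were not whole. Summed over its 3 transcripts the locus was 8.12-fold higher, and the third transcript, XM_022951374.1, had 5.19, 0 and 0 CPM in controls and 0, 0.901 and 1.02 CPM in darkness (adjusted p = 0.726, edgeR).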

How the data were processed

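RNA sequencing of 3 control and 3 darkness nubbins was analysed from 1 table. The authors deposited estimated counts, the reads assigned to each transcript, not scaled to depth; 0 columns were unused. The submitters' processing notes name fastp, Salmon 0.11.4 and DESeq2 without their roles. Build, annotation and settings: not given in the sources used here. Titles gave the groups, and column names matched the sample descriptions. Symbols came from a RefSeq gene table of jaStyPist1.2, matched without the version number.

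CPM used column totals. Rounded estimates were filtered with filterByExpr, scaled by TMM and tested in edgeR 4.0.16 (R 4.3.3; quasi-likelihood, robust, group as the only term, two-sided, Benjamini-Hochberg over 26906 transcripts, or over genes after summing, threshold 0.05). Data for darkness against control were simulated over 26906 transcripts, with rises and falls mixed. The fit called 63 of 100 transcripts changed 4-fold, 69 of 100 changed 8-fold and 9 unchanged ones. Changed transcripts were drawn only from those with a mean of at least 4 CPM, so these shares do not cover scarcer models. The members and lists were chosen with earlier results of these data known. Models named are the 10 highest ratios, the 5 with most reads in darkness, members sharing or neighbouring a locus, the 5 widest spreads in each group, the edge of the list, and the 3 largest called rises and falls among neighbours and other transcripts. Others were named after their values were seen.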

Additional observations from a re-analysis of the deposited data

How the results depend on the processing

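Of the 150 models, 110 to 150 were called higher in edgeR, DESeq2, limma-voom, 3 other scalings, 2 other filters and fits with 1 library left out or with the replicate block, and 121 in every fit with 1 library left out (122 to 147 in each). Their median fitted log2 fold change of 2.49 stayed between 2.42 and 2.58. The choice used this contrast, so these counts and folds are a description. Over all matched genes 11.7% were called higher in edgeR with all libraries. With the replicate block 6.68% were, and with 1 library left out 5.82% to 10.4%. How much of the lower counts among the 150 comes from fewer calls in general was not tested. Scaling by library totals moved the median of all transcripts from 0.05 to 0.14 on the log2 scale. Another way of choosing found 106 to 146 of the 150 again, except that whole estimates only left 90, since the other members were no longer open to choice. Of these, scaling by TMM gave 143, thinning to one depth 142, a minimum of 20 reads 127, of 5 reads 135, keeping the 200 most abundant models 146 and the ratio of means 113.

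The 7 other transcripts called higher became 4 with limma-voom, 3 with the replicate block and 3 to 8 with 1 library left out. With whole estimates only there were 0, because none could be tested. The 30 neighbouring genes called higher became 17 with the replicate block, 17 with whole estimates only (fewer genes tested) and 14 to 29 with 1 library left out. Where no reason is given, the cause was not tested. In all 15 fits the percent of neighbours called higher was above that of all matched genes and the percent called lower was below it. Of models within 5 accession numbers, 94 were called higher, 179 with DESeq2 and 22 with the replicate block. Those called lower, 11.5% of 1070, numbered 216 and 43 with these. Over all matched genes 14.3% were higher and 21.9% lower with DESeq2, and 6.68% and 11.6% with the replicate block, against 11.7% and 18% in edgeR. The shares over all transcripts in the alternative fits are not given. Among named models and genes no alternative turned a direction. The replicate numbers were not taken as pairs: deviations of same-numbered libraries correlated at −0.042, −0.028 and 0.031, and with the block 110 of the 150 were called. The measures chosen after the values were seen are the runs by accession, the reading of left-out libraries and the choice of whole estimates for neighbours and other transcripts. Comparisons of protein families, hydrophobic stretches, promoter motifs and gene lists were not run, for want of sequences and product names. Depth limits the models with few control reads, but by the approximate SE their folds were not always the least certain. XM_022923930.1, with 13, 10 and 13 reads in controls 1 to 3, had an SE of 0.37 on its fitted log2 fold change in edgeR. LOC111332922, with 976, 166 and 366 reads there, had an SE of 0.62.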
